A study of Mus musculus with 6 samples.

Results

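The acinar cell of the exocrine pancreas packs its products into zymogen granules and releases them at its apical surface. Beside the protease precursors, these granules carry amylase and ribonuclease, proteins that line the granule membrane or form its matrix, and inhibitors that keep trypsin in check. Many of these genes are switched on strongly as the acinar cell matures before birth. The genes described here are 10 such non-protease granule and apical genes, listed by symbol: Amy2a5, Amy1, Rnase1, Gp2, Sycn, Zg16, Dmbt1, Spink3, Serpini2 and Aqp12. Of the 10, 9 had a row in the deposited table of 14681 genes. Spink3 was absent under that symbol. The row named Spink1 (Entrez gene ID 20730) carries Spink3 as an older name in RefSeq and is given here as a relative, outside the count of 9.

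RNA was sequenced from dorsal pancreas of C57BL/6 mouse embryos at embryonic day 18.5, in 3 knockout and 3 control samples. The knockout is a loss of Dpy30 in the pancreas, as the series title and the protocol name it. Dpy30 is a core subunit of the complexes that methylate lysine 4 of histone H3. The labels give neither the genotype of the controls nor the promoter that drives the deletion, and the name of the deposited table refers to Pdx1 and not to Dpy30. The table holds the authors' test results and 1 mean over all libraries for each gene, so no value of a single library can be shown and the depth of each library is unknown. The labels say that 3 embryos of each kind were dissected, and the authors' p-values rest on the spread among them.

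The table does not state which group is the numerator of its fold changes. Negative values are read here as lower in the knockout, as is usual for mutant over control. If the table runs the other way, all directions given here are turned round. Dpy30 itself does not settle the question, since its mean normalized count was only 29.4 and its adjusted p was 1.00 by the authors' deposited table. The authors' fold changes were shrunken toward 0, so unshrunken values were reconstructed from the deposited value and its error, and log2 fold changes are these reconstructed values with their SE unless they are named as deposited. They are called well determined where the SE was at most 1. The reconstruction has a prior scale that was fitted to the deposited p-values. Making it 5% smaller or larger moved the 7 well determined members by a factor of 0.997 to 1.003, but moved values near 0 and imprecise values far more. Except where values are taken relative to pan-epithelial genes, adjusted p-values come from the authors' DESeq2 test. Calls are made below 0.05.

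The pancreatic amylase genes share all or part of their coding sequence, which bears on how their values can be read. The coding sequence of Amy2a5 was 1524 bases long in GENCODE M21 (GRCm38), and those of Amy2a4, Amy2a3 and Amy2a2 differed from it at 0 bases. Over the whole transcript, 66.3% of the 31-base words of Amy2a5 were found in Amy2a4 and 23.7% in Amy2b. Of the coding words of Amy2a5, 57.3% were found in Amy2b and 8.70% in Amy1, the amylase of salivary gland and liver. The first 60 coding bases, on the minus strand of chromosome 3, show how close even Amy1 is. Capitals mark the 5 bases of Amy1 that differ from Amy2a5.
Amy2a5: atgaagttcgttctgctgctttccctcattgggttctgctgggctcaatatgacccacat
Amy1: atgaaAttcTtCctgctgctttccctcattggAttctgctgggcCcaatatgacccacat

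The 250 bases before the start site are shown for the called members with an entry in the RefSeq promoter table (GRCm38.p6), and for Amy1, which was not called. Amy1 has more than 1 start site in RefSeq, and the downstream one is shown. Capitals mark matches on either strand to a searched motif. The motif TATAAA is the TATA box. The motif CAGCTG is an E-box, a kind of site bound by basic helix-loop-helix factors such as Ptf1a and Bhlha15, as is the motif CACCTG. The motif TTTCCC resembles the other part of a PTF1 site, and the motif CAAGGTC resembles the site of the nuclear receptor Nr5a2.
Amy2a5 (chr3:113258700-113258949, minus strand): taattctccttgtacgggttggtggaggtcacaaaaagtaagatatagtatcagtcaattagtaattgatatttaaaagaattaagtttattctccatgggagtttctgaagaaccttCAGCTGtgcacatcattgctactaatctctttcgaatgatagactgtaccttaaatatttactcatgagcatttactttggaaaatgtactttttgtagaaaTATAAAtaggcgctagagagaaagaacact
Amy1 (chr3:113574763-113575012, minus strand): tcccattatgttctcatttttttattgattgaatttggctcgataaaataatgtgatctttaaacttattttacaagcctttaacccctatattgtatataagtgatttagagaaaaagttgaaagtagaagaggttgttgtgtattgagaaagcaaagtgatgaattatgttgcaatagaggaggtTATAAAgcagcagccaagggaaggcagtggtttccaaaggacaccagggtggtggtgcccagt
Rnase1 (chr14:51146768-51147017, minus strand): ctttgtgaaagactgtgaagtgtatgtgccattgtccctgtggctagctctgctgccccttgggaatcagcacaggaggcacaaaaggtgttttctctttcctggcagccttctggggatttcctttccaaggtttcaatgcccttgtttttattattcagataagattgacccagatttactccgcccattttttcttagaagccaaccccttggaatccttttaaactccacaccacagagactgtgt
Sycn (chr7:28540635-28540884, plus strand): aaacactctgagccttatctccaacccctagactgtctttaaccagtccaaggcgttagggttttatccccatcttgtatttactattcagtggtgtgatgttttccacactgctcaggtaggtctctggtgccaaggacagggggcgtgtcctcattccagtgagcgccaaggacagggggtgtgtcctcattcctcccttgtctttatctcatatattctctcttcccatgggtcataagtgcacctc

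Of the 9 members in the table, 7 had a promoter entry, and Zg16 and Dmbt1 had none. TATAAA was found in 4 of the 7, against 12.4% of all 32851 windows of the same length. In Amy2a5 it lay 30 to 25 bases before the start, and in Gp2 32 to 27 bases before it. The other matches lay farther from the start, 63 to 58 bases before it in Amy1 and 244 to 239 in Serpini2. The match in Serpini2 was on the opposite strand. CACCTG was found in 2 of the 7, Serpini2 and Aqp12, against 17.2% of all windows. CAGCTG was found in Amy2a5 alone of the 7, from 132 to 127 bases before the start, against 13% of all windows. At the same distance Amy2b had the motif CACCTG instead. The motif TTTCCC had 0 matches in the 7, against 21.9% of all windows. CAAGGTC also had 0, against 3.32% of all windows. Matches to different motifs did not overlap. These are counts of letters in short windows and show no binding.

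Amylase, ribonuclease, syncollin and Dmbt1 were 3.72-fold to 5.37-fold lower in the knockout. Of the 9 members, 4 were called lower on the adjusted p of the authors' deposited table (Dmbt1, Rnase1, Amy2a5 and Sycn), 0 were called higher and 5 did not pass. Among all 12108 genes with an adjusted p, 0.479% were called lower and 0.264% higher, 0.743% in all. Abundant genes were called more often: of the 408 genes with a mean count of at least 1000, 5.64% were called lower, and 4 of the 6 members that abundant were among them. At an unadjusted p under 0.05, 7 of the 9 members were lower and 0 higher, against 2.7% of all genes with a p in each direction. All 9 deposited signs were negative, as were those of 6654 of all 14681 genes, and all 9 genes passed the authors' filter on low counts. In whole tissue, fewer acinar cells and less RNA per acinar cell cannot be told apart.

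**Figure D1:**
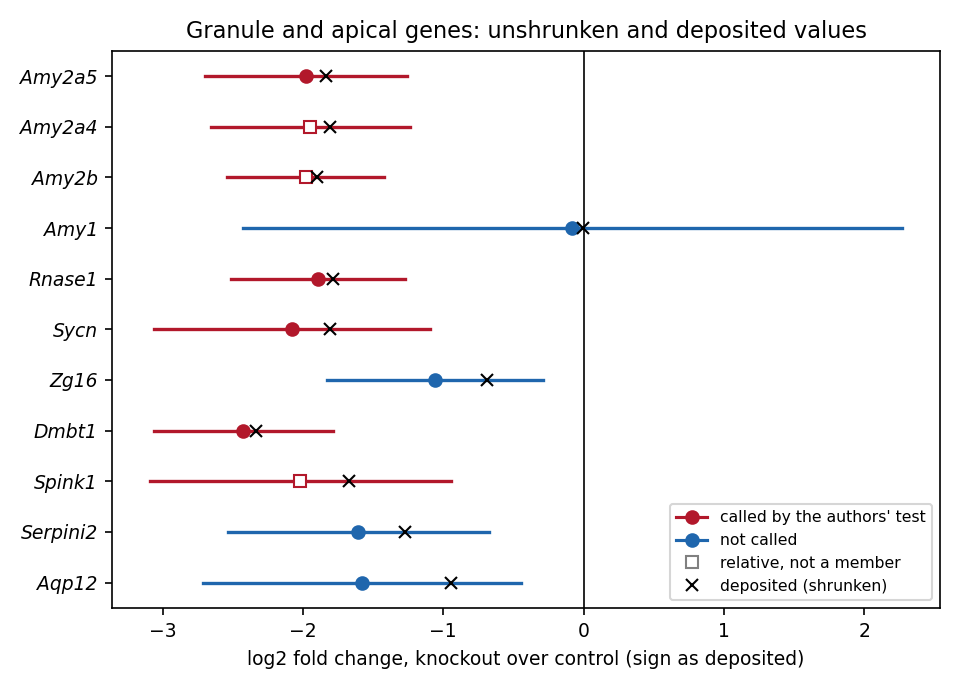
Reconstructed log2 fold changes (x axis, log2 units) of 8 of the members and of 3 relatives (open squares) with 95% intervals, coloured by the authors' call; crosses are the authors' deposited values. The called members lie between -1.89 and -2.43, Zg16 lies at -1.06, and the interval of Amy1, which depends on the prior scale, spans 0; Gp2, with an SE of 4.22, is not drawn.

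Of the members, Amy2a5 had the highest count. Amy2a5, a pancreatic amylase that digests starch (GRCm38 chromosome 3, 113249178 to 113258699; Entrez gene 109959), reached 36464 normalized counts on average, the 7th highest of all genes. With 3 libraries in each group, this mean and the fold change imply 14756 normalized counts in knockout and 58173 in control. Amy2a5 was at -1.98 ± 0.37, 3.94-fold lower (95% interval 2.40-fold to 6.48-fold; adjusted p = 3.34e-05 by the authors' deposited table). Implied means of this kind are a reading of the fold change and not a further measurement.

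The other pancreatic amylase genes fell too, with values close to that of Amy2a5. Amy2a4 had a mean count of 113567, the 4th highest of all genes, and a log2 fold change of -1.95 ± 0.36 (adjusted p = 3.56e-05 by the authors' deposited table). Amy2b, at a mean count of 1403, was at -1.98 ± 0.29 (adjusted p = 5.04e-09 by the authors' deposited table). GENCODE M21 annotates it as a pseudogene, while RefSeq lists it as coding. Because the coding sequences of Amy2a4 and Amy2a5 are the same, the split of reads between them is uncertain. Their close fold changes are for the same reason not separate evidence. Amy2a4 held 74.97% of the counts of the 4 amylase genes in the table. Summed over Amy2a4, Amy2a5, Amy2b and Amy1, the implied means were 62120 in knockout and 240841 in control, 3.88-fold lower in the knockout. Amy2a1, Amy2a2 and Amy2a3 had no row in the table.

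Amy1 stood apart from the pancreatic amylases in level. Its mean count of 46.3 was 0.0306% of the amylase counts. Its log2 fold change was -0.08 ± 1.199, with a 95% interval from -2.43 to 2.27 (adjusted p = 1.00 by the authors' deposited table). With the prior scale 5% larger it was -0.02 ± 0.62, so neither its size nor the width of its interval was determined.

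Rnase1, the pancreatic ribonuclease that digests RNA in food (Entrez gene 19752; chromosome 14, 51145002 to 51146767), had implied means of 1410.3 normalized counts in knockout and 5244 in control. It was at -1.89 ± 0.32, 3.72-fold lower (95% interval 2.42-fold to 5.72-fold; adjusted p = 1.49e-06 by the authors' deposited table). Of the listed relatives of the amylases and of Rnase1, 8 of 20 were in the table and 6 had an adjusted p. Amy2a4 and Amy2b were called lower, 0 were called higher and 4 did not pass. The ribonucleases Rnase4 and Ang (angiogenin), at mean counts of 483 and 91.9, had an adjusted p of 1.00 each by the authors' deposited table and no well determined size.

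The proteins of the granule membrane and matrix varied most in how well they were determined. Sycn encodes syncollin, a small protein on the inner face of the granule membrane (Entrez gene 68416; chromosome 7, 28540885 to 28542210). Its implied means were 513 normalized counts in knockout and 2166 in control. It was at -2.08 ± 0.50, 4.22-fold lower (95% interval 2.14-fold to 8.33-fold; adjusted p = 0.00779 by the authors' deposited table). Measured against the pan-epithelial genes, Sycn was at -1.47 and was not called. Its adjusted p there was 0.163 by a z-test with Benjamini-Hochberg adjustment. The adjusted p of Sycn ranged from 0.00779 to 0.268 over its alternatives, and from 0.0924 to 0.268 over the pan-epithelial means taken at other prior scales.

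Zg16, a lectin-like protein of the granule matrix that goblet cells of the intestine also make (Entrez gene 69036; chromosome 7, 127050156 to 127052675), was at -1.06 ± 0.39. Its implied means were 709 normalized counts in knockout and 1479 in control, and its adjusted p was 0.333 by the authors' deposited table (unadjusted p = 0.00637). Gp2 is the main glycoprotein of the zymogen granule membrane, held there by a lipid anchor (Entrez gene 67133; chromosome 7, 119442537 to 119459272). Its mean count was only 88.1, and its adjusted p was 1.00 by the authors' deposited table. Its log2 fold change was -2.56 ± 4.22, and -0.07 ± 0.71 with the prior scale 5% larger, so its size was not determined. No direction can be stated for Gp2.

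Dmbt1 had the lowest value of the well determined members. It encodes a large glycoprotein with scavenger receptor cysteine-rich repeats, which is secreted at epithelial surfaces (Entrez gene 12945; chromosome 7, 131032057 to 131121628). Its mean count of 15989.8 was the 15th highest of all genes. The implied means were 5020.05 normalized counts in knockout and 26960 in control. Dmbt1 was at -2.43 ± 0.32, 5.37-fold lower (95% interval 3.46-fold to 8.34-fold; adjusted p = 1.11e-10 by the authors' deposited table), and its p was the 8th smallest of the 14386 genes with a p. Of the other zona pellucida-domain, scavenger receptor and related genes listed with Gp2, Dmbt1 and Zg16, 8 of 14 were in the table and 7 had an adjusted p, of which 0 were called. Before adjustment, the authors' DESeq2 test gave p under 0.05 to 2 lower and 1 higher. Cuzd1, a granule membrane protein of acinar cells, was at -1.26 ± 0.53 (adjusted p = 0.540 by the authors' deposited table), and Zp3, with a mean count of 14.5, had an adjusted p of 0.531 there.

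Of the inhibitors, Spink1 fell and Serpini2 did not pass the threshold. Serpini2, a serine protease inhibitor of the serpin family made by acinar cells (Entrez gene 67931; chromosome 3, 75242357 to 75270078), had implied means of 1173 normalized counts in knockout and 3568 in control. It was at -1.60 ± 0.47, with an adjusted p of 0.0751 by the authors' deposited table, just above the threshold (unadjusted p = 0.000670). Spink1, the Kazal-type inhibitor that blocks trypsin inside the acinar cell (chromosome 18, 43728069 to 43737237), had implied means of 142 normalized counts in knockout and 576 in control. Spink1 was at -2.02 ± 0.55, 4.05-fold lower (95% interval 1.93-fold to 8.52-fold; adjusted p = 0.0312 by the authors' deposited table). The difference between Spink1 and Serpini2 was -0.41, with a 95% interval from -1.83 to 1.01. A call in 1 of these inhibitors and not in the other is therefore no sign that they differed.

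Of 34 other Kazal and serpin inhibitor genes listed, Spink1 included, 21 were in the table and 17 had an adjusted p. Spink1 was called lower, Serpina1d was called higher and 15 did not pass. Serpina1d, a liver alpha-1-antitrypsin gene with a mean count of 43.9, had an adjusted p of 0.0312 by the authors' deposited table and no determined size. The median over the 9 well determined genes of the list was 0.29.

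Aqp12, an aquaporin of acinar cells that sits inside the cell rather than at its surface (Entrez gene 208760; chromosome 1, 93006334 to 93012269), had implied means of 201 normalized counts in knockout and 599.6 in control. It was at -1.58 ± 0.58, with an adjusted p of 0.310 by the authors' deposited table (unadjusted p = 0.00558). Of 11 other aquaporin genes, 8 were in the table, 5 had an adjusted p and 0 were called, and before adjustment the authors' DESeq2 test gave none of the 8 (0) a p under 0.05. Aqp1, a water channel of blood vessels and ducts, was the single well determined gene of these 8, at 0.30 ± 0.52. Aqp5 and Aqp11 had the smallest p of the 8, at mean counts of 2.71 and 5.98.

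**Figure D2:**
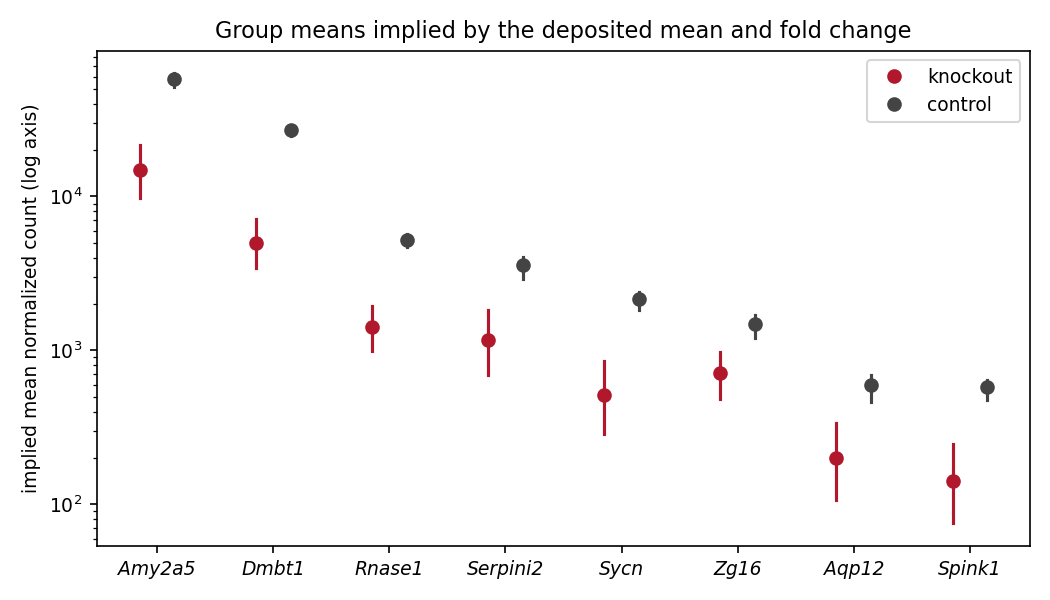
Mean normalized counts (y axis, log scale) in knockout and control that the authors' mean over all libraries and the reconstructed fold change imply, for 7 members and Spink1, with the range given by the 95% interval of the fold change. Both means of a gene are fixed by the same fold change, so their intervals are not independent; Amy2a5 has implied means of 14756 in knockout and 58173 in control.

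The well determined members were compared with each other. Across the 7 of them, the differences of 21 pairs were computed with the errors added as if the genes were independent. The 95% interval excluded 0 in 1 pair, Dmbt1 against Zg16, where the difference was -1.36 with an interval from -2.36 to -0.36. These are the lowest and the highest of the 7 values, and the intervals were not adjusted for the 21 pairs. A difference between Dmbt1 and Zg16 is therefore not established either. For Amy2a5 against Rnase1 the difference was -0.08, with an interval from -1.03 to 0.86. For Sycn against Zg16, both of the granule membrane and matrix, it was -1.02, with an interval from -2.26 to 0.23. For Sycn against Aqp12 the interval ran from -1.995 to 0.999. With intervals this wide, the other 20 pairs cannot be called alike.

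Levels between genes were compared per kilobase of transcript. Amy2a5 led with 9815 mean normalized counts per kilobase, followed by Rnase1 with 3354, Dmbt1 with 2549, Sycn with 2409, Serpini2 with 1679.97 and Zg16 with 1604. Aqp12 had 368, and Gp2 and Amy1 closed the order with 47.6 and 23.3 per kilobase. The order rests on 1 annotated transcript for each gene. In plain counts Dmbt1 stood above Rnase1, but its transcript has 6272 bases and that of Rnase1 has 992. The spread of a level over samples is not known, so neighbours in this order cannot be called different. Together the 9 members held 1.67% of all mean normalized counts, of which Amy2a5 alone made up 0.995% and Dmbt1 0.437%.

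**Figure D3:**
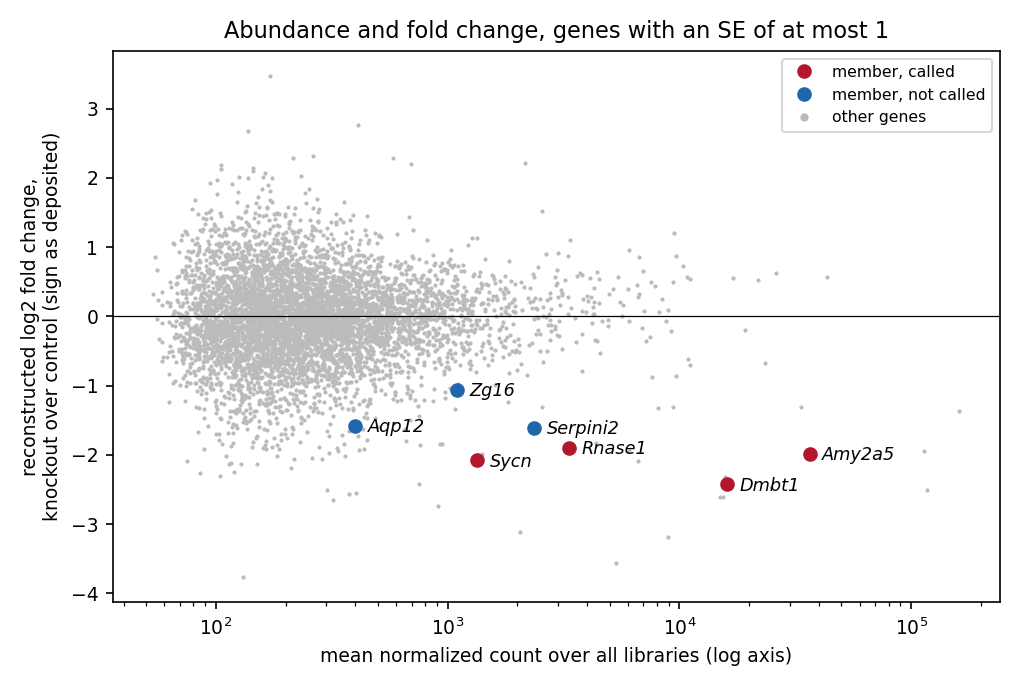
Reconstructed log2 fold change (y axis) against mean normalized count (x axis, log scale) for the 5710 genes with an SE of at most 1. The 7 well determined members lie between -1.06 and -2.43, below the 5th percentile of all these genes (-1.11) except Zg16, and are found from a mean count of 400.1 (Aqp12) to 36464 (Amy2a5).

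The members were set beside the other secreted products of the acinar cell. The median log2 fold change over the 7 well determined members was -1.89, and that over all 5710 well determined genes was -0.04. For lipases and colipase the median was -2.51 over 3 genes, with Clps, Pnliprp1 and Pnliprp2 called lower of 4 with an adjusted p. For elastases, chymotrypsins and carboxypeptidases it was -1.89 over 8 genes, with 5 of 9 called lower (among them Cpa1, Cela2a, Cpb1 and Cela3b). For trypsinogens it was -1.30 over 7 genes, with 4 of 7 called lower (2210010C04Rik, Prss2, Try5 and Prss1). Single values ran from -2.43 to -1.06 in the members, from -3.19 to -1.83 in lipases and colipase, from -3.11 to 1.199 in trypsinogens and from -2.61 to 0.56 in elastases, chymotrypsins and carboxypeptidases. All lists come from the same 6 libraries, and no test of the difference between lists was made.

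A wider list held other granule, apical and secretory genes of acinar cells. Of its 36 genes, 29 were in the table, all with an adjusted p, and 5 were called lower, 0 higher and 24 not called. At an unadjusted p under 0.05, 12 were lower and 0 higher. Pdia2, a protein disulfide isomerase, was at -2.08 ± 0.31 and Fkbp11, a foldase, at -1.85 ± 0.45. Ggt1, the gamma-glutamyl transferase of apical membranes, was at -1.72 ± 0.48 and Gatm, which makes the precursor of creatine, at -1.22 ± 0.33. Rab27a, a small GTPase of secretory granule docking, had an adjusted p of 9.38e-05 by the authors' deposited table and no determined size. The median over the 23 well determined genes was -1.11. With the prior scale 5% and 20% larger it was -0.84 and -0.46 over the same genes, and with it 5% and 20% smaller -1.26 over 20 genes and -1.29 over 13. Among those not called, Klk1, a kallikrein, was at -0.54 ± 0.34 and Anpep, an apical peptidase, at 0.77 ± 0.40.

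**Figure D4:**
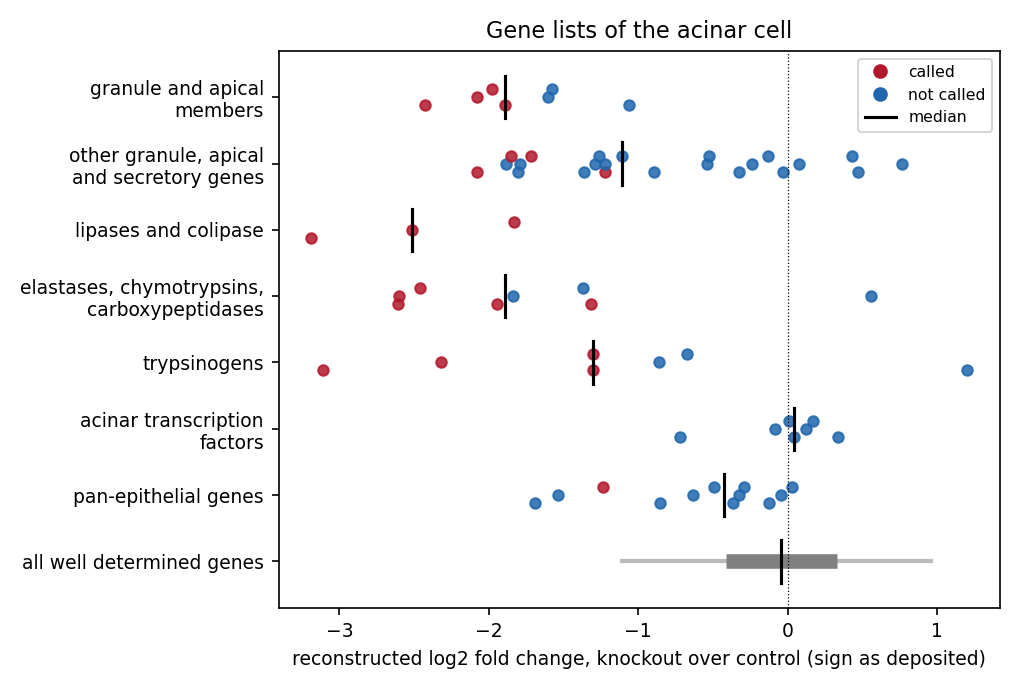
Reconstructed log2 fold changes (x axis) of the well determined genes of 7 lists, coloured by the authors' call, with the median of each list as a bar. The bottom line shows all 5710 well determined genes with their median (-0.04), the 25th to 75th percentiles (thick) and the 5th to 95th (thin); the members have a median of -1.89 and the acinar transcription factors of 0.04.

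Transcription factors of the acinar cell had values around 0. Among the 8 with a row, the authors' DESeq2 test called 0 and gave 0 a p under 0.05 before adjustment. Their median was 0.04 over 7 well determined genes. Bhlha15, which drives the secretory architecture of the acinar cell, was at 0.01 ± 0.42 at a mean count of 450.3, and Nr5a2 at -0.08 ± 0.45. Foxp1 was at -0.72 ± 0.60. These values lie near 0, where the prior scale matters: with it 5% larger Foxp1 was at -0.50, and with it 5% smaller at -1.33. No difference between the transcription factors and the members was tested.

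Markers of other cell types also lay mostly to one side of 0, and their part in the members' values was not tested. Pan-epithelial genes had a weighted mean log2 fold change of -0.61 over 12 well determined genes, and Krt18 was called lower of 17 with an adjusted p. Taken relative to them, 3 of the 9 members (Dmbt1, Amy2a5 and Rnase1) were called by a z-test on the reconstructed values. Over the 13059 genes with a reconstructed value, the split was 19 lower and 115 higher. In the authors' test it was 58 lower and 32 higher. The error of the pan-epithelial mean itself (SE 0.13) was left out of the z-test, so its calls are less certain than their adjusted p shows. The pan-epithelial mean also depends on the prior scale. It was -0.78 over 8 genes with the scale 5% smaller and -1.18 over 4 genes with it 20% smaller. Over all 12 genes it was -0.48 with the scale 5% larger and -0.31 with it 20% larger. These means were used in turn, with the values and SEs of the fitted scale. The split was then 16 lower and 282 higher, 12 and 1225, 19 and 60, and 20 and 26. The same 3 members were called each time except with the scale 20% smaller, where Dmbt1 alone was called. At that scale the reconstruction matched the deposited p in only 1.06% of genes, against 90.8% at the fitted scale. By the sign of the deposited value, which was positive in 8027 of all genes, mesenchyme genes were above 0 in 12 of 13 (0 called; Col3a1 and Vim had the smallest p), and liver genes in 11 of 11 (0 called; Apoa1 and Fgg had the smallest p). Erythroid genes were above 0 in 7 of 7 (Gata1 called), and endocrine genes below 0 in 12 of 12 (Ins2, Chga, Chgb and Gcg called lower). Ductal genes were below 0 in 7 of 7, with 0 called and the smallest p in Pkhd1 and Bicc1. Zg16 and Dmbt1 are also made by intestinal epithelium, and of 18 markers of intestine, stomach and salivary gland 8 were in the table. Of these 8, 6 were below 0 and 2 above, and 0 of the 4 with an adjusted p were called. The smallest p were those of Lgals4 and Agr2, both below 0. Those 4 include Bhlha15, counted above among the acinar transcription factors, which was the only well determined gene of the 8. The defining markers Muc2 and Cdx2 of intestine and Smgc of salivary gland had no row in the table. The stomach genes Tff1 and Gkn1 and the mucus gene Fcgbp had mean counts of 154, 80.9 and 134 but were given no p by the authors' deposited table.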

How the data were processed

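Reads were handled with Trimmomatic, Salmon and DESeq2 and the build was GRCm38 (mm10), per the submitters' processing notes; versions, annotation and model: not given in the sources used here. Deposited by the authors were a mean normalized count for each gene (a signal averaged over all libraries), a log2 fold change with its error in log2 units, and a p-value with its adjusted p-value. A p was present for 14386 of 14681 genes, and an adjusted p for 12108. Repeating the Benjamini-Hochberg adjustment returned the adjusted p to within 0.000755.

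The authors' test was not run again. Calls relative to pan-epithelial genes come from a separate z-test. In it, the reconstructed value minus the pan-epithelial mean was divided by the SE of the gene. Its p-values were Benjamini-Hochberg adjusted over 13059 genes. The deposited log2 fold changes were shrunken, with 92.7% of them within 0.1 of 0. Unshrunken values were reconstructed under a Cauchy prior. Its scale was fitted to the p-values as 0.31025 log2 units, where the z of 90.8% of genes matched within 0.1. This share was 7.69% with the scale 5% smaller and 26.6% with it 5% larger. With the scale 20% smaller and 20% larger it was 1.06% and 15.3%. Values are given only for matching genes, and an SE of at most 1 is called well determined (5710 genes). The steps were tested on data simulated under a Cauchy prior (Python 3.11.15, SciPy 1.17.1). That test checks the calculation and cannot show that the deposited values were made under such a prior. Precision follows abundance: the median SE was 0.32 above a mean count of 1000 and 1.64 at counts of 10 to 100. Intervals are 95%.

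Transcript lengths and coding sequences are from GENCODE M21, taking the transcript with the longest coding sequence. All listed members are reported; of other lists, called genes or those with the smallest p are named, except some that are not reported here, and further genes in the lists were chosen after their values were seen. Members and lists were chosen with earlier results of these data known. Pan-epithelial scaling, thresholds, filters, prior scales and lengths were varied.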

Additional observations from a re-analysis of the deposited data

How the results depend on the processing

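With the threshold at 0.1 and at 0.01, 5 and 4 members were called. Adjustment over every gene with a p, or over genes with a mean count of at least 10, gave 4 each, and scaling on pan-epithelial genes gave 3. Counting Spink1 as a member, an alternative chosen after seeing the data, gave 5. Over all 9 members, with the undetermined Gp2 and Amy1, the median was -1.89 for reconstructed values and -1.27 for deposited ones; leaving out Amy1 from these 9, or adding Spink1 to them, gave -1.94. The members' share of 1.67% of counts was 0.672% without the amylases and 4.81% with Amy2a4 and Amy2b added. Scaling on pan-epithelial genes turned Amy1 to 0.53, which follows from adding 0.61 to every gene, and Sycn was not called there. Serpini2 was called at a threshold of 0.1. Gp2 was called in none of the alternatives listed here, and no direction can be stated for it. The other members kept their direction and call in these alternatives, with an exception. Amy2a5 and Rnase1 were not called relative to the pan-epithelial mean taken at a prior scale 20% smaller, chosen after seeing the data. Dividing by length decided the order of Rnase1 and Dmbt1: the log2 ratio of their levels was 0.40 per transcript length, 1.45 per coding length and -2.26 without division. A prior scale 20% smaller gave no value for Amy1 and Gp2, and one 20% larger gave -0.01 and -0.02, while the median of the 7 well determined members was -1.90 at the smaller and -1.89 at the larger scale. Scales 5% to either side, chosen after seeing the data, gave a median of -1.89.

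No paired analysis was possible because the deposited table holds no per-library values. Leaving out libraries, and count tests with other normalizations, could not be run for the same reason.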
